A study of Mus musculus with 24 samples.

Results

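The DNA glycosylases of base excision repair are described here in the livers of mice with and without OGG1. The set holds 10 genes chosen by name: Ogg1, Mutyh, Neil1, Neil2, Neil3, Nthl1, Ung, Smug1, Tdg and Mpg. Each gene was read from a probe set whose platform annotation gave that gene as its only symbol, and 9 of the 10 had such a probe set, 1 each, among 35556 probe sets and 19938 genes. Tdg had 0 of its own, since its 4 probe sets are also annotated to the pseudogene Tdg-ps2, and no value is given for it. The question was whether the other glycosylases differ when OGG1 is missing.

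The Mouse Gene ST array was used to measure liver RNA of 24 male C57BL6 mice, with 1 array per mouse and 6 mice in each of 4 groups. The groups were Ogg1-/- mice on chow, WT mice on chow, Ogg1-/- mice on a high-fat diet (HFD) and WT mice on the HFD. The mice were housed singly, ate freely and were fed these diets for 10 weeks. The labels put the males at 10 weeks of age when feeding began, whereas the study's methods give another age. Per the methods, the Ogg1-/- allele is inherited and was kept by crossing to C57BL/6J and mating heterozygous mice, so the gene is missing in all tissues and not only in hepatocytes. Signals are log2 values per probe set, on which a difference of 1 is a doubling, and errors are SDs over 6 mice unless stated. A probe set passed when its p from limma, adjusted over all 35556 probe sets, was under 0.05.

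Base excision repair removes small lesions from DNA, such as oxidized, deaminated and alkylated bases. A glycosylase recognizes the damaged base and cuts its bond to the sugar, which leaves an abasic site that an endonuclease, a polymerase and a ligase then repair. Each glycosylase has its own set of lesions, but these sets overlap, so that a base missed by one enzyme can be a substrate of another. Guanine is the base most easily oxidized, and its product 8-oxoguanine can pair with adenine during replication. OGG1 cuts it out where it lies opposite cytosine.

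Markers of hepatocytes, including Alb, were high in every liver, with a mean log2 signal over 7 genes of 13.31 to 13.41 in Ogg1-/- livers and 13.25 to 13.42 in WT livers on the HFD. Markers of other liver cells are given beside the share of all probe sets that passed on the HFD, which was 10.3% higher and 9.55% lower in Ogg1-/- livers. Of 7 markers of sinusoidal endothelial cells, 5 were lower in Ogg1-/- livers, and the list's mean was 8.398 to 8.561 in Ogg1-/- livers and 8.682 to 9.106 in WT livers. Of 9 proliferation markers, 1, Birc5, was higher in Ogg1-/- livers on the HFD (0.47, adjusted p = 0.00322), and the list's mean was 5.768 to 6.153 in Ogg1-/- livers and 5.69 to 6.403 in WT livers. Of the other lists on the HFD, 1 of 7 Kupffer cell markers was higher and 2 lower, 1 of 6 lymphocyte markers higher and 1 lower, 2 of 7 stellate cell markers lower, 1 of 7 hepatocyte markers higher, and 0 of 5 bile duct and 0 of 4 pancreatic acinar markers passed. The part of these cells in the glycosylase values was not tested, and in whole liver fewer cells of a type and less RNA per cell cannot be told apart. On chow, 0 of the 52 markers passed, and 7 had an unadjusted p under 0.05 in limma. The share of all probe sets at that level in limma is not given here, so nothing is read from the 7 of 52. The methods' t-test passed 0 of the 52 after adjustment, with 3982 of all 35556 probe sets at an unadjusted p under 0.05.

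OGG1 itself, the 8-oxoguanine glycosylase, was the gene targeted, and its probe set (10540639, on chromosome 6) was lower in Ogg1-/- livers in both diets. On chow, the lowest, median and highest log2 signals were 5.85, 5.94 and 5.997 in Ogg1-/- livers and 6.26, 6.51 and 6.55 in WT livers. On the HFD they were 5.70, 5.87 and 6.03 in Ogg1-/- livers and 6.34, 6.46 and 6.57 in WT livers. In each diet, the Ogg1-/- livers were all lower than the lowest WT liver (p = 0.00216 in an exact permutation test, two-sided, the smallest p possible with 6 mice a group). The difference was -0.54 on chow (standard error 0.065, adjusted p = 3.22e-05, limma) and -0.59 on the HFD (standard error 0.065, adjusted p = 2.89e-05, limma), or 0.686-fold and 0.663-fold of the WT signal. Remaining transcript cannot be read from the signal that is left. The sources used here do not say whether the probes fall in the deleted sequence. The study could not detect Ogg1 in Ogg1-/- mice by qRT-PCR, which is another assay. Over all 24 arrays, the mean of the Ogg1 probe set was 6.18, above 54.4% of all probe sets. The Ogg1 difference on the HFD minus that on chow was -0.05 (95% interval -0.24 to 0.14, adjusted p = 0.943, limma).

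**Figure D1:**
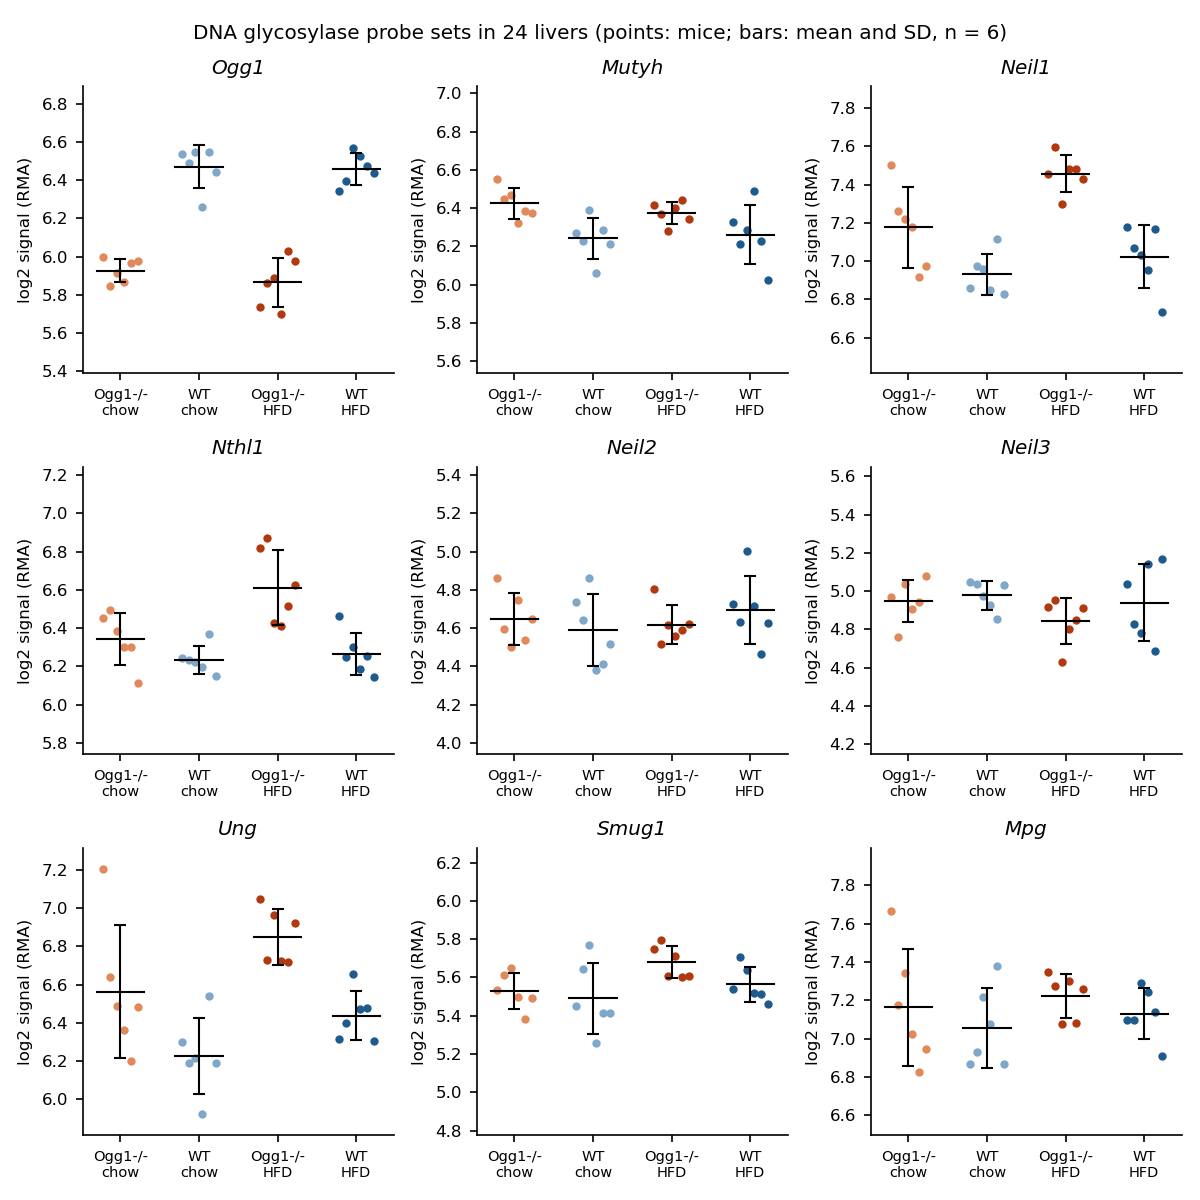
Log2 signal (vertical axis, RMA) of the 9 measured glycosylase probe sets in Ogg1-/- and WT livers on chow and on the HFD. Each point is a mouse, bars give the group mean with its SD (n = 6), and every panel spans the same width of log2 units. Ogg1 does not overlap between the genotypes in either diet, and Neil1 and Ung do not overlap on the HFD, where every Ogg1-/- liver is above every WT liver.

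MUTYH acts in the same repair of oxidized guanine, since it removes adenine that was placed opposite 8-oxoguanine. On chow, Mutyh had a log2 signal of 6.42 ± 0.081 in Ogg1-/- livers and 6.24 ± 0.11 in WT livers (SD, n = 6 each), and the groups overlapped. The difference of 0.18 (95% interval 0.04 to 0.32) had an unadjusted p of 0.0131 and an adjusted p of 0.18 in limma, so Mutyh did not pass. On the HFD, Mutyh had a log2 signal of 6.38 ± 0.058 in Ogg1-/- livers and 6.26 ± 0.15 in WT livers (SD, n = 6 each), a difference of 0.11 (95% interval -0.03 to 0.25), which did not pass either.

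NEIL1 and NTHL1 mainly remove oxidized pyrimidines and ring-opened purines, as bifunctional enzymes that also cut the DNA strand. On the HFD, Neil1 (probe set 10593887, chromosome 9) had lowest, median and highest log2 signals of 7.30, 7.47 and 7.597 in Ogg1-/- livers and 6.73, 7.05 and 7.18 in WT livers. All 6 Ogg1-/- livers were above all 6 WT livers, and the difference was 0.44 (standard error 0.090, adjusted p = 0.00329, limma), or 1.35-fold with a 95% interval of 1.19-fold to 1.54-fold. On the same diet, Nthl1 (probe set 10442542, chromosome 17) had lowest, median and highest log2 signals of 6.41, 6.57 and 6.87 in Ogg1-/- livers and 6.14, 6.25 and 6.46 in WT livers. The Nthl1 groups overlapped, because 1 WT liver at 6.46 exceeded the lowest Ogg1-/- livers at 6.41 and 6.43. The Nthl1 difference was 0.35 (standard error 0.082, adjusted p = 0.00636, limma), or 1.27-fold with a 95% interval of 1.13-fold to 1.43-fold.

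NEIL2 and NEIL3, the remaining members of the Nei-like family, prefer damage in bubble or single-stranded DNA, and NEIL3 is known mainly from dividing cells. Their probe sets, like that of Smug1, had means below that of the median probe set, which limits what can be read from them. On the HFD, Neil2 had a log2 signal of 4.62 ± 0.10 in Ogg1-/- livers and 4.69 ± 0.18 in WT livers, and Neil3 had 4.84 ± 0.12 in Ogg1-/- livers and 4.94 ± 0.20 in WT livers (SD, n = 6 each). Neither passed, with differences of -0.08 (95% interval -0.26 to 0.11) and -0.10 (95% interval -0.26 to 0.07).

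UNG is the main uracil glycosylase of nucleus and mitochondria, and removes uracil that arises from cytosine deamination or is built in during DNA synthesis. On the HFD, Ung (probe set 10524450, chromosome 5) had lowest, median and highest log2 signals of 6.72, 6.82 and 7.05 in Ogg1-/- livers and 6.31, 6.44 and 6.66 in WT livers. Every Ogg1-/- liver was above every WT liver, and the difference was 0.41 (standard error 0.12, adjusted p = 0.0226, limma), or 1.33-fold with a 95% interval of 1.11-fold to 1.59-fold. Of the 3 genes that passed, Ung had the highest adjusted p. Leaving out Ogg1-/- HFD replicate 1, WT HFD replicate 1 or WT HFD replicate 6 gave an adjusted p of 0.0599, 0.0523 and 0.0525 in limma, with differences of 0.37, 0.39 and 0.39. Neil1 and Nthl1 passed without each of the 12 livers of the comparison in turn, with adjusted p of 0.00296 to 0.0108 and 0.0049 to 0.0207 in limma.

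SMUG1 and MPG complete the set. SMUG1 removes uracil and 5-hydroxymethyluracil, and MPG removes alkylated purines and hypoxanthine. On the HFD, Smug1 had a log2 signal of 5.68 ± 0.084 in Ogg1-/- livers and 5.56 ± 0.092 in WT livers, and Mpg had 7.22 ± 0.12 in Ogg1-/- livers and 7.13 ± 0.13 in WT livers (SD, n = 6 each). Neither passed, with differences of 0.12 (95% interval -0.04 to 0.27) and 0.09 (95% interval -0.15 to 0.33).

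Over the 8 members other than Ogg1, 3 were higher in Ogg1-/- livers on the HFD, 0 were lower and 5 did not pass. On that diet, 19.8% of all probe sets passed, with 10.3% of all higher and 9.55% of all lower, so the 3 of 8 has to be read against a diet in which a large part of the array differed between the genotypes. Without overlap were 2 of the 8 members, against 12.1% of all probe sets. The median of the 8 differences was 0.12, beside 0.02 over all probe sets. With a fold of at least 1.5 required as well, 0 of the 8 were left, against 5.89% of all probe sets, and the upper 95% bounds were under 1.5-fold for 6 of the 8 members, the highest being 1.59-fold for Ung. These bounds hold for the fold on the array. For the metabolic genes that the study tabulated from both assays, the folds by qRT-PCR were larger than those on the array.

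On chow, 0 of the 8 members passed, against 0.478% of all probe sets, and 0.242% with a fold of at least 1.5. With so low a share over all probe sets, nothing is read from the 0 of 8. The highest difference was that of Ung, at 6.56 ± 0.35 in Ogg1-/- livers and 6.23 ± 0.20 in WT livers (SD, n = 6 each), which was 0.34 with a 95% interval of 0.08 to 0.59 and an adjusted p of 0.179 in limma. Neil1 had 7.18 ± 0.21 in Ogg1-/- livers and 6.93 ± 0.11 in WT livers (SD, n = 6 each), a difference of 0.25 (95% interval 0.06 to 0.43) with an adjusted p of 0.174 in limma. With Mutyh, these were the 3 members at an unadjusted p under 0.05 in limma. The share of all probe sets at that level in limma is not given here, so nothing is read from the 3 of 8. The methods' test called 0 members too, with 3982 of all 35556 probe sets at an unadjusted p under 0.05 on chow. Without overlap on chow were 0 of the 8, against 1.06% of all probe sets. The other differences on chow were 0.11 for Nthl1 (95% interval -0.06 to 0.28), 0.11 for Mpg (-0.13 to 0.35), 0.06 for Neil2 (-0.13 to 0.24), 0.04 for Smug1 (-0.12 to 0.19) and -0.03 for Neil3 (-0.20 to 0.14). Of the 8 upper bounds on the array fold, 7 were under 1.5-fold and that of Ung was 1.51-fold.

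**Figure D2:**
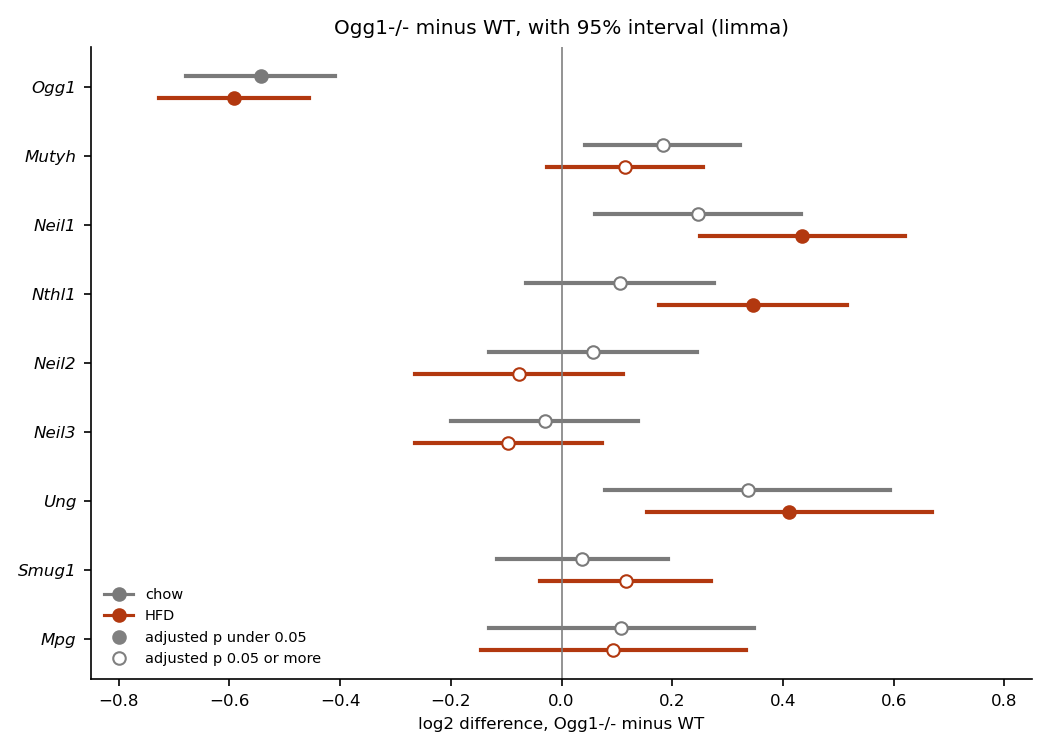
Log2 difference, Ogg1-/- minus WT (horizontal axis), of each glycosylase on chow (grey) and on the HFD (red), with 95% intervals from limma. Filled points passed at an adjusted p under 0.05. Ogg1 lies at -0.54 and -0.59, Neil1, Nthl1 and Ung are filled on the HFD alone, and the intervals of the 2 diets overlap for every member.

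A call on the HFD and none on chow does not show that diet changed the genotype difference. In the test of that difference, 0 of the 8 members passed, against 0.00281% of all probe sets. The Nthl1 interaction was 0.24 (95% interval 0.00 to 0.48, unadjusted p = 0.0495, adjusted p = 0.724, limma), the only member at an unadjusted p under 0.05. The Neil1 interaction was 0.19 (95% interval -0.07 to 0.45) and that of Ung was 0.08 (95% interval -0.29 to 0.44).

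Promoter sequences of the glycosylases that were higher on the HFD are shown because these genes passed in the same direction, although they lie on different chromosomes. The table used (RefSeq, GRCm38.p6) holds 250 bases before and 50 after the start site, and 9 of the 10 members matched, with 10 promoters. Each run below holds the 250 bases before the start, 5′ to 3′ on the gene's strand, at chr9:57148306-57148555 on the minus strand for Neil1, at chr17:24632432-24632681 on the plus strand for Nthl1 and at chr5:114130185-114130434 on the plus strand for Ung. Capitals mark the antioxidant response element TGACNNNGC in Neil1 and the GC-box GGGCGG, on either strand, in Nthl1 and Ung.
Neil1: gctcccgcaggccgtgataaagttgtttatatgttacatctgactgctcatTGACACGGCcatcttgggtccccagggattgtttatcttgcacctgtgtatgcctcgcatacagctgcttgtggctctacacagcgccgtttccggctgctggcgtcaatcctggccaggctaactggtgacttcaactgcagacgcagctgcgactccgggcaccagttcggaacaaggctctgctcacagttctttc
Nthl1: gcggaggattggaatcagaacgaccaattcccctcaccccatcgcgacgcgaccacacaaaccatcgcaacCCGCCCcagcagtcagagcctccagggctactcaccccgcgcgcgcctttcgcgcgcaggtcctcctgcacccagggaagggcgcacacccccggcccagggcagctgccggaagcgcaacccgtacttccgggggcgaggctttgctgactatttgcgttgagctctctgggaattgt
Ung: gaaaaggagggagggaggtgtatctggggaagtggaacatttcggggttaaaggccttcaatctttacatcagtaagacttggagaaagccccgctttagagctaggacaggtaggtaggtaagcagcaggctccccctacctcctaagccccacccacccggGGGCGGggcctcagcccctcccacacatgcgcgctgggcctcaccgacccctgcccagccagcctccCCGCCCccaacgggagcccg
The antioxidant response element is the binding motif of NRF2, and the match in Neil1 begins at -199 from the start. This motif was in 1 of the 10 promoters of the members, against 12.4% of all 32851 promoters searched. The GC-box, which SP1-type factors bind, was in 7 of the 10, against 35.7% of all, and was absent from the Neil1 window. Its letters hold a CpG, and the members' promoters held 2 to 31 CpGs each, with 17 for Neil1, 30 for Nthl1 and 16 for Ung. The median over all promoters was 7, and the shares were not adjusted for CpG content, so nothing is read from the 7 of 10. The E-box CACGTG, the motif of clock and MYC-type factors, was in 1 of the 10, that of Tdg, against 7.15% of all. The D-box TTATGTAA was in 0 of the 10, against 0.94% of all. Both strands were searched, the matches in the printed windows do not overlap each other, and a match shows only that the letters are present.

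The diet itself was compared within each genotype. In WT livers, 0 of the 8 members passed for HFD against chow, against 0.925% of all probe sets. In limma, 0 of the 8 had an unadjusted p under 0.05, and the methods' t-test passed 0 after adjustment. Ogg1 had 6.46 ± 0.083 on the HFD and 6.47 ± 0.11 on chow in WT livers (SD, n = 6 each), a difference of -0.01 with a 95% interval of -0.15 to 0.12. In the same livers, the HFD minus chow difference was 0.09 for Neil1 (95% interval -0.09 to 0.28), 0.03 for Nthl1 (-0.14 to 0.20) and 0.21 for Ung (-0.05 to 0.47), which was the highest of the 8. All 8 upper bounds were under 1.5-fold, with 1.38-fold the highest. These are array values. By qRT-PCR, another assay, the study reported that the HFD raised Ogg1, Neil1 and Nth1 (Nthl1 here) in WT livers, and Neil1 and Nth1 in Ogg1-/- livers. The reason for the unlike results in WT livers was not tested.

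In Ogg1-/- livers, 2 of the 8 members were higher on the HFD than on chow and 0 were lower, against 9.53% of all probe sets that passed and 4.58% that were higher. Neil1 had lowest, median and highest log2 signals of 7.30, 7.47 and 7.597 on the HFD and 6.92, 7.20 and 7.50 on chow, a difference of 0.28 (standard error 0.090, adjusted p = 0.0496, limma). Nthl1 had 6.41, 6.57 and 6.87 on the HFD and 6.11, 6.34 and 6.495 on chow, a difference of 0.27 (standard error 0.082, adjusted p = 0.0392, limma). The diet groups overlapped for both genes. Both calls lay close to the threshold: over the 12 livers left out in turn, Neil1 passed 2 times (adjusted p 0.00349 to 0.146, limma) and Nthl1 5 times (adjusted p 0.0134 to 0.115, limma), the livers being named in the closing section. Neither gene passed in the 12 arrays alone (adjusted p = 0.126 for Neil1 and 0.142 for Nthl1, limma) or in the methods' t-test. The same Ogg1-/- HFD livers enter the genotype comparison and the diet comparison, so these are not separate evidence. In this diet comparison, 4 of 9 proliferation markers, 1 of 7 Kupffer cell markers and 1 of 7 hepatocyte markers were higher on the HFD. Of the markers of other cells, 3 of 7 for sinusoidal endothelial cells, 1 of 7 for stellate cells and 1 of 6 for lymphocytes were lower on the HFD, beside 4.94% of all probe sets, and 0 of 5 bile duct and 0 of 4 acinar markers passed. The part of these cells in the glycosylase values was not tested.

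**Figure D3:**
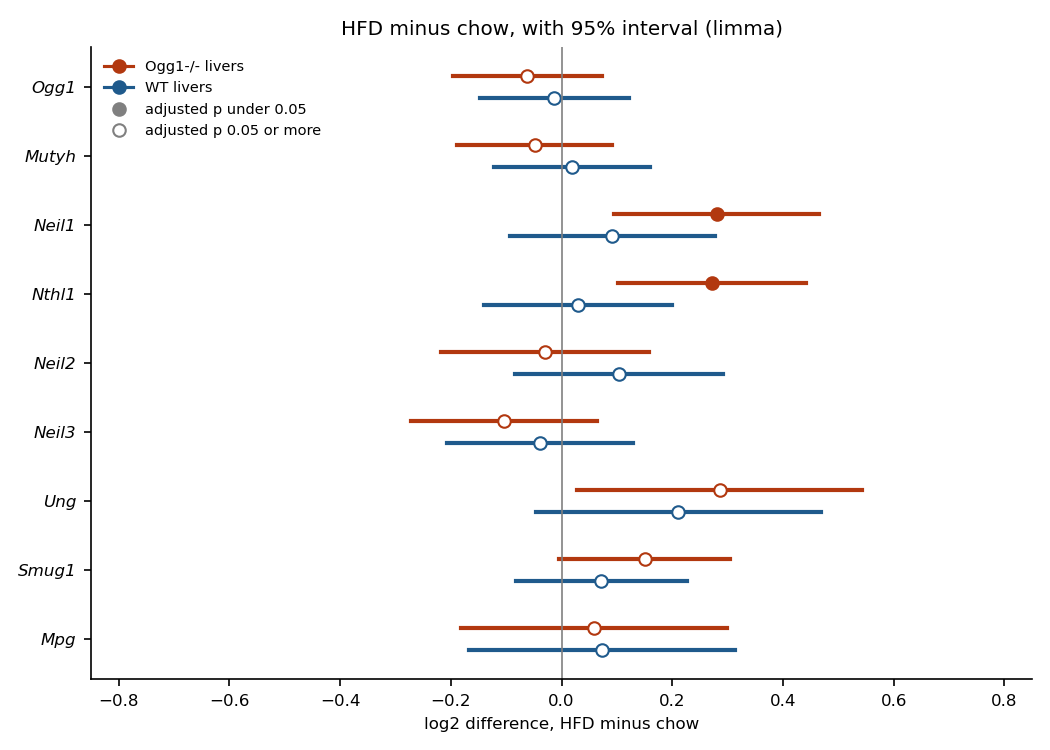
Log2 difference, HFD minus chow (horizontal axis), of each glycosylase in Ogg1-/- livers (red) and WT livers (blue), with 95% intervals from limma. Filled points passed at an adjusted p under 0.05: Neil1 and Nthl1 in Ogg1-/- livers at 0.28 and 0.27, and no member in WT livers.

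The livers of a group also differed from each other along a shared axis. This axis, the first principal component of the deviations from the group means on chow, took up 40.2% of their variation over all probe sets, and 59.2% of the squared deviations along it came from 1 liver, Ogg1-/- chow replicate 1. On the HFD, the score on this axis was 31.0 to 67.3 in Ogg1-/- livers and -8.21 to 22.9 in WT livers, without overlap. On chow it was -29.6 to 93.4 in Ogg1-/- livers and -33.6 to 6.0 in WT livers, and the liver at 93.4 also had the highest signal of its group for 5 of the 8 members: Neil1, Neil2, Mutyh, Ung and Mpg. The share of all probe sets that were highest in this liver was not counted, so nothing is read from the 5 of 8. Without that liver, the chow difference was 0.18 for Neil1 and 0.21 for Ung, with 0 of the 8 passing.

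**Figure D4:**
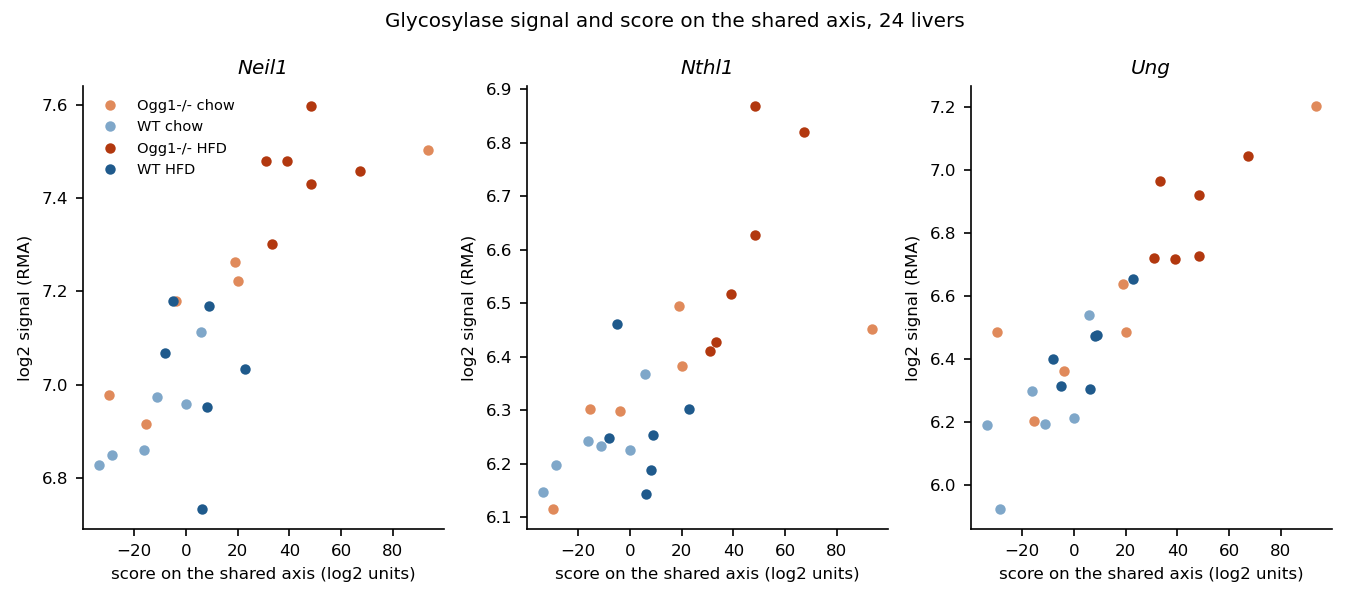
Log2 signal (vertical axes, RMA) of Neil1, Nthl1 and Ung against the score on the axis shared by livers of a chow group (horizontal axes, log2 units), 1 point per liver. The 6 Ogg1-/- livers on the HFD have scores of 31.0 to 67.3, above every WT liver on the HFD, and 1 Ogg1-/- liver on chow stands at 93.4.

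With the score as a covariate in limma, the differences on the HFD were 0.27 for Neil1 (adjusted p = 0.0707), 0.23 for Nthl1 (adjusted p = 0.134) and 0.12 for Ung (adjusted p = 0.514), and 0 of the 8 members passed. Over the 10 settings other than leaving out a liver, this one included, the adjusted p of these genes on the HFD ran from 0.000453 to 0.0707 for Neil1, from 0.00329 to 0.134 for Nthl1 and from 0.00196 to 0.514 for Ung. For HFD against chow in Ogg1-/- livers, the differences with the covariate were 0.15 for Neil1 (adjusted p = 0.298, limma) and 0.18 for Nthl1 (adjusted p = 0.214, limma), and neither passed. The same covariate left Ogg1 at -0.57 on chow and -0.63 on the HFD, and both passed. Over all probe sets, 2.71% passed on the HFD with the covariate. The score was computed from the same arrays and differs between the genotypes on the HFD, so the covariate also takes out any genotype difference that runs along the axis, and the 2 cannot be told apart.

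The steps after base removal, the nucleotide pool, partner proteins and 1 further glycosylase were covered by 40 further genes, of which 38 had a probe set of their own. On chow, 0 of the 38 passed, and 8 had an unadjusted p under 0.05 in limma. The share of all probe sets at that level in limma is not given here, so nothing is read from the 8 of 38. The methods' t-test passed 0 of the 38 after adjustment, with 3982 of all 35556 probe sets at an unadjusted p under 0.05. On the HFD, 4 were higher in Ogg1-/- livers, 3 were lower and 31 did not pass, with a median difference of 0.04 beside 0.02 over all probe sets. These 7 of 38 were a share near the 19.8% of all probe sets that passed on the HFD, so nothing is read from the count. In the test of whether the genotype difference changed with diet, 0 of the 38 passed, against 0.00281% of all probe sets. By list, the counts on the HFD were 1 higher of 5 for abasic site processing, 1 higher of 4 for short patch gap filling, 0 of 7 for long patch synthesis, 2 lower of 4 for poly(ADP-ribose) metabolism, 1 higher of 6 for mitochondrial partners, 1 higher of 5 for cleaning of the nucleotide pool, 1 lower of 6 for partner proteins, and 0 of 1 for the remaining glycosylase, Mbd4. The total was not stable, at 2 to 18 genes across the settings described in the closing section.

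Dut, whose product removes dUTP before polymerases can build uracil into DNA and so lowers the supply of UNG substrate, had lowest, median and highest log2 signals on the HFD of 8.09, 8.40 and 8.54 in Ogg1-/- livers and 7.66, 7.79 and 7.99 in WT livers. The groups did not overlap, and the difference was 0.51 (standard error 0.089, adjusted p = 0.0016, limma). Tfam, which packages mitochondrial DNA, differed by 0.39 (adjusted p = 0.0105, limma), at 7.82 ± 0.10 in Ogg1-/- livers and 7.43 ± 0.25 in WT livers (SD, n = 6 each). Poll, a polymerase that fills short gaps, differed by 0.41 (adjusted p = 0.0255, limma), and Apex2, an abasic endonuclease, by 0.25 (adjusted p = 0.0349, limma). The chow differences were 0.12 for Dut, 0.13 for Tfam, 0.07 for Poll and 0.28 for Apex2, which did not pass. For Apex2 the genotypes did not overlap on chow (adjusted p = 0.113, limma), as for 1.06% of all probe sets, but did on the HFD.

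Of the 3 genes that were lower, 2 handle poly(ADP-ribose) at strand breaks. Parp2, a polymerase that marks breaks, had lowest, median and highest log2 signals on the HFD of 6.05, 6.11 and 6.46 in Ogg1-/- livers and 6.49, 6.80 and 7.14 in WT livers. The groups did not overlap, and the difference was -0.61 (standard error 0.13, adjusted p = 0.0036, limma). Parg, whose product removes the polymer, differed by -0.59 (adjusted p = 0.0217, limma), and Ercc6, which acts at stalled transcription, by -0.48 (adjusted p = 0.0362, limma). The chow differences were -0.43 for Parp2, -0.30 for Parg and -0.25 for Ercc6, which did not pass. Dut, Tfam and Parp2 passed without each of the 12 HFD livers in turn, and the other 4 named genes did not. With the axis score as a covariate, Tfam (0.49, adjusted p = 0.027) and Dut (0.38, adjusted p = 0.0276) passed in limma. Parp2 did not pass with it (-0.32, adjusted p = 0.0741, limma), nor did Apex2 (0.24), Poll (0.13), Ercc6 (-0.13) and Parg (-0.12), whose adjusted p was 0.176 to 0.637 in limma.

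**Figure D5:**
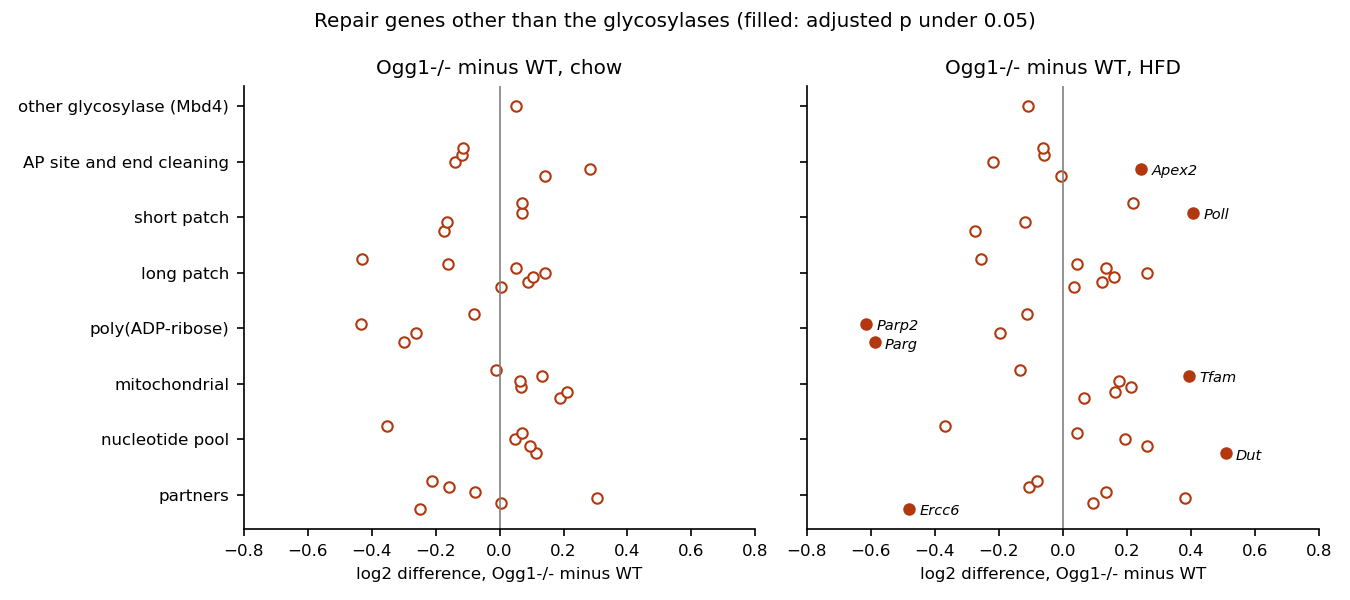
Log2 difference, Ogg1-/- minus WT (horizontal axes), on chow (left) and on the HFD (right) of the 38 measured repair genes other than the members, by list. Filled and named points passed at an adjusted p under 0.05: none on chow, and on the HFD 4 genes on the right of 0 and 3 on the left.

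Genes whose pattern over the 24 arrays was nearest to a member were found from the root mean square difference after centring each gene on its own mean. For Ogg1 these were Rfx4, Zbtb21 and Entpd4, at 0.166, 0.172 and 0.175 log2 units. For Neil1, the other member with the lowest adjusted p, they were Psmb1, Rraga and Rps6kb2, at 0.0851, 0.0886 and 0.0889 log2 units.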

How the data were processed

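The deposited values, 1 log2 signal per probe set, come from 24 Affymetrix Mouse Gene ST arrays and were made by the authors with RMA per the submitters' processing notes, whereas the study's methods name another variant, GC-RMA. Folds of dim probe sets are understated by such processing, and the arrays' distributions were close but not equal. All 35556 probe sets were fitted without a filter in limma 3.58.1 (R 4.3.3, lmFit and eBayes) as 1 model of the 4 groups, with Benjamini-Hochberg adjustment over all probe sets. Of these, 21789 carry a single symbol, 1621 several and 12146 none. Each gene was represented by its single-symbol probe set with the highest mean. Single values were compared by exact permutation tests. Array correlations were 0.952 to 0.993, and 0 arrays were identical. Precision is limited by the number of arrays.

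The members and gene lists were chosen with earlier results of these data known. All members were named, and of each pathway list at most 2 genes with the smallest adjusted p on the HFD among those that passed. Marker lists covered hepatocytes, Kupffer, sinusoidal endothelial, stellate, bile duct, lymphocyte, acinar and proliferating cells. Alternatives were a replicate block, median centring, quantile normalization, array weights, a trended robust prior, a filter on dim probe sets, the 12 arrays of a comparison alone, the methods' t-test, the mean over probe sets, a fold of 1.5, the axis covariate and each array left out. For the pathway lists they were added after seeing the data. The procedure was tested on simulated data with independent noise in each probe set. That test cannot show how the calls behave under variation shared between probe sets, such as the axis above.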

Additional observations from a re-analysis of the deposited data

Results flagged for a closer look

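Among 36 groups of 6 livers, 9 members in 4 groups each, 2 single livers lay far from the rest of their group, and chance gives about 1 group in 20. Ogg1 was 6.26 in WT chow replicate 4, against 6.44 for the nearest WT liver on chow. Neil2 was 4.81 in Ogg1-/- HFD replicate 1, against 4.62 for the nearest liver of that group.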

How the results depend on the processing

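The Ogg1 difference kept its direction and its call under every alternative, except that at -0.54 on chow it was short of a fold of 1.5. The count of the other 8 members on chow, in the interaction and in WT livers between the diets was 0 under every alternative. On the HFD the 3 calls became 0 with a fold of 1.5 and 0 with the axis covariate, and stayed at 2 to 3 with 1 liver left out. The 2 calls of HFD against chow in Ogg1-/- livers became 1 with median centring and with a trended robust prior, and 3 with array weights, where Ung passed too. They became 0 with the 12 arrays alone, the methods' t-test, a fold of 1.5 and the axis covariate, and 0 to 3 with 1 liver left out. The 7 pathway genes on the HFD became 13 with quantile normalization, 14 without dim probe sets, 18 with array weights, 12 with the 12 arrays alone, 14 with the methods' t-test, 2 with a fold of 1.5 and 2 with the axis covariate, and 4 to 16 with 1 liver left out. The count was 16 without Ogg1-/- chow replicate 1, and 4 without Ogg1-/- HFD replicate 2 and without WT HFD replicate 6. The cause was not tested. With 1 of the 12 HFD livers left out, Apex2 lost its call without Ogg1-/- replicates 1, 2, 4 and 6 and WT replicates 4, 5 and 6 (adjusted p up to 0.1, limma). Poll lost it without Ogg1-/- replicates 1, 2 and 6 and WT replicates 1 and 3 (up to 0.0704), Ercc6 without Ogg1-/- replicates 1, 2, 4 and 5 and WT replicates 1, 2, 4 and 6 (up to 0.0956), and Parg without Ogg1-/- replicate 1 and WT replicates 2 and 6 (up to 0.0585).

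With the 12 livers of HFD against chow in Ogg1-/- mice left out in turn, Neil1 passed only without Ogg1-/- chow replicate 1 and without Ogg1-/- HFD replicate 3, and Nthl1 only without Ogg1-/- chow replicates 1 and 2 and Ogg1-/- HFD replicates 3, 4 and 5. Differences that never passed turned sign in a few settings. With the axis covariate they were -0.0165 for Neil2, -0.0834 for Mpg and -0.0028 for Smug1 on chow, -0.175 for Mpg on the HFD, -0.027 for Nthl1, -0.0184 for Mutyh and -0.0603 for Mpg between the diets in WT livers, and -0.152 for Mpg in Ogg1-/- livers. With array weights Neil2 was -0.0074 on chow. With 1 liver left out on chow, Neil3 ran from -0.0564 to 0.0065 and Smug1 from -0.0091 to 0.0937.

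Same-numbered livers had residual correlations of -0.273 to 0.431 over 36 pairs, with a median of -0.034. Livers of unlike numbers were not compared, so these values do not settle whether the replicate numbers pair the livers. With the replicate number as a block, Ogg1 stayed at -0.54 on chow (adjusted p = 0.000133, limma) and -0.59 on the HFD (adjusted p = 0.000122, limma), and the block changed no call of a member: 0 passed on chow, 3 passed on the HFD, and 2 passed for HFD against chow in Ogg1-/- livers. The methods' t-test, without a shared estimate of the spread, passed 33 probe sets on chow and 8098 on the HFD after adjustment, or 25 and 2005 with a fold of 1.5. Neil2, Neil3 and Smug1 were too dim for the setting without dim probe sets, and the interaction has no value in the t-test or in the 12 arrays alone.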
